A study of Mus musculus with 18 samples.

Results

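The genes described here are 34 members of the amino acid stress program governed by the transcription factor ATF4. They comprise the kinases that sense the stress, ATF4 and the factors around it, its feedback and stress outputs, the enzymes of serine synthesis and of the linked folate cycle, other amino acid enzymes, and amino acid transporters. Membership was set by gene symbol, in a list chosen with earlier results of these data known. Shares of members set beside those of all genes are therefore a description. All 34 symbols were found among the 21380 gene identifiers of the expression table. A gene was tested when its normalized count reached 10 in at least 3 of the 18 libraries, which 14288 genes did. The filter kept 33 members and dropped Cbs, which makes cystathionine and was listed at 0 to 4.18 normalized counts, with at most 8 reads in any group. The libraries were poly(A)-selected, strand-marking RNA-seq of macrophages grown from mouse bone marrow, and the study asked what loss of lactate dehydrogenase A (Ldha), the enzyme that turns pyruvate into lactate, does to these cells. Flushed marrow was grown for 7 days in DMEM with 15% serum, 30 ng/mL M-CSF and added non-essential amino acids, so the medium of every group carried a supply of amino acids. Cells labelled WT or LDHA KO were left untreated, or treated for 24 hours with interferon-gamma (IFN-gamma) or interleukin 4 (IL-4). That gives 6 groups of 3 libraries, and each of the 6 animals (3 per genotype) supplied 1 library to every treatment. The series title calls the loss macrophage-specific, the labels name neither the allele nor the promoter that drives it, and no age of the animals is given in them.

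In the integrated stress response, kinases such as PERK (Eif2ak3) and GCN2 (Eif2ak4) phosphorylate the initiation factor eIF2 when proteins misfold or amino acids run short. General translation then falls while ATF4 protein is made from a transcript whose upstream reading frames normally hold it back, and ATF4 with its dimer partners switches on genes for amino acid synthesis, uptake and tRNA charging. Serine synthesis runs from a glycolytic intermediate through PHGDH, PSAT1 and PSPH, and serine then feeds one-carbon units into the folate cycle through SHMT1, SHMT2, MTHFD2 and MTHFD1L. Since ATF4 is controlled in large part at translation, transcript levels of Atf4 do not stand for the amount of ATF4 protein.

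The known binding element of ATF4 with its C/EBP partners has the core TGATGNAA (TTNCATCA on the other strand), and this core was searched on both strands in RefSeq promoter windows of 300 bases (250 before to 50 after a start site, build GRCm38.p6). Windows were found for 30 members, and 8 of them held the core (26.7%), against 1219 of 27025 genes with windows (4.51%). The 8 members were Nupr1, Trib3, Chac1, Vldlr, Asns, Pycr1, Pck2 and Slc1a4; Cth, Eif4ebp1, Slc7a5 and Slc1a5 had no window. The sequences printed below include that of Asns, a gene with the core that was higher in KO cells under both cytokines. Nupr1 and Chac1 have the core and strong responses to IFN-gamma. Pck2 has the core and no change that passed the main test. Phgdh and Atf5, which rose in KO cells under every treatment, had no such core in their windows. The core lay 23 bases before the start in Asns, 110 in Nupr1, 193 in Chac1 and 103 in Pck2, and the 68-base stretches hold 30 bases on either side of it. Capitals mark the core, each sequence reads 5′ to 3′ on the gene's own strand, and a match or its absence describes these letters only.
Asns, chr6:7693210-7693459, minus strand, 250 bases before the start: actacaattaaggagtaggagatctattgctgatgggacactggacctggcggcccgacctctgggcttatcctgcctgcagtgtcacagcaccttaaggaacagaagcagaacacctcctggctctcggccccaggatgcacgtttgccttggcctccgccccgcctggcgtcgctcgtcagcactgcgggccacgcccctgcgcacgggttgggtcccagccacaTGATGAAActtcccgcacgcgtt
Nupr1, chr7:126625543-126625610, minus strand: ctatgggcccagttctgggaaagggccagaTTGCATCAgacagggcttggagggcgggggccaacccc
Chac1, chr2:119351019-119351086, plus strand: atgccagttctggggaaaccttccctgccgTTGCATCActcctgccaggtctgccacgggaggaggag
Pck2, chr14:55540133-55540200, plus strand: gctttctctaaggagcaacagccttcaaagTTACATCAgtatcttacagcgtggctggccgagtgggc
Phgdh, chr3:98339970-98340219, minus strand, 250 bases before the start: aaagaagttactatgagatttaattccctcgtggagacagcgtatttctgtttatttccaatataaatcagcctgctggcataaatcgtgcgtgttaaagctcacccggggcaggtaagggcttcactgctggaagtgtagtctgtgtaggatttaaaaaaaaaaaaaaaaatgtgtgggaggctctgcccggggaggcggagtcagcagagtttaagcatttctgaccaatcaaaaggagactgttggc
Atf5, chr7:44816659-44816908, minus strand, 250 bases before the start: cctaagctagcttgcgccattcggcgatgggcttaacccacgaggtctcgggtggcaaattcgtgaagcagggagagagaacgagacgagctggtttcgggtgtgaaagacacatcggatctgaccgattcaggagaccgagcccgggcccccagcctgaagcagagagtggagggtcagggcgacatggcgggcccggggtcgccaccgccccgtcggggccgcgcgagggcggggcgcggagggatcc

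The libraries held 9772945 to 49537719 recovered reads, and the lowest depth was that of WT IL-4 replicate 2. Ldha was lower in KO libraries by a log2 change of -2.32 untreated, -1.97 under IFN-gamma and -2.51 under IL-4, and no KO library overlapped a WT library of its treatment. The macrophage gene Lyz2 was also lower in KO libraries, with group means of 784 against 631574 normalized counts untreated. Of the other macrophage markers, Csf1r (96442 against 86520 in WT), Cd68, Itgam and Cd14 had higher and Adgre1, Fcgr1 and Mertk (1552 against 2613) lower means in untreated KO cells; Csf1r and Cd68 alone were higher in KO under IFN-gamma, and all were lower in KO under IL-4. WT IFN-gamma replicate 1 stood apart from its group: its chi-square per gene against the other replicates was 60.8 and 67.1, against 4.72 between those. The WT IL-4 libraries differed among themselves as well (46.5 to 66.2), and the WT animal numbered 1 supplied the library that was highest of its group for Ddit3, Nupr1, Ppp1r15a and Ddit4 under both cytokines. Stromal markers (10 of 12 in the table, none at 0 in a group) summed to 214 to 569 normalized counts in WT and 520 to 1815 in KO untreated libraries, 176 to 361 and 317 to 1089 under IFN-gamma, and 265 to 975 and 579 to 1743 under IL-4. Dendritic cell markers (3 of 4) summed to 1273 to 2487 in WT and 830 to 994 in KO libraries under IFN-gamma and to at most 81.9 elsewhere, and endothelial markers (3 of 4) to 1684 to 1754 and 3551 to 4503 under IFN-gamma and to at most 1124 elsewhere. The endothelial sum under IFN-gamma was mostly Kdr, with means of 1329 in WT and 3803 in KO. Pecam1 went the other way, from 367 in WT to 173 in KO, and Cdh5 was low at 15.5 and 21.5. Neutrophil markers (4 of 8) summed to at most 67.0 and B cell markers (3 of 4) to at most 60.6 in any library. The part of these other cell types in the results was not tested, and in bulk RNA fewer cells of a type and less RNA per cell cannot be told apart.

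Between genotypes, a minority of the members moved, and those that did were mostly higher in KO macrophages. Atf5, Phgdh and the transporter subunit Slc3a2 rose in KO cells under all 3 treatments. Atf4 and Asns joined them under both cytokines, whereas Psat1, Mthfd2 and Nupr1 were lower in KO cells under IFN-gamma. Ddit3, Trib3, Ppp1r15a and Chac1, the classical stress outputs, passed the genotype test in no treatment. By limma with Benjamini-Hochberg adjustment over 14288 genes, on log2(normalized count + 1), 3 of 33 members rose in untreated KO cells (9.09%), while 1.98% of all genes were called in either direction and 1.46% were called higher. Under IFN-gamma 11 members rose and 3 fell (14 of 33, 42.4%), where 27.9% of all genes were called (14.3% higher, 13.6% lower). Under IL-4 7 members rose (21.2%), against 6.59% of all genes called (3.46% higher, 3.13% lower). The median log2 change of the 33 members was 0.20, 0.19 and 0.29 in the 3 comparisons, beside 0.01 over all genes in each. Without WT IFN-gamma replicate 1 the count under IFN-gamma was 8 higher and 3 lower, and the untreated count was 5. Leaving out WT IL-4 replicate 1 also gave 5 untreated calls, and 11 under IL-4. The low transcripts Stc2 and Vldlr reached the count minimum only or almost only in KO libraries (3 of 3 and 9 of 10 libraries), and without them 9 members rose and 3 fell under IFN-gamma.

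IFN-gamma moved most members, as it did most genes tested, and the members that moved went mostly upward. In WT 19 of 33 rose and 5 fell, where 62.4% of all genes were called (31.4% higher, 31.1% lower). In KO 22 rose and 2 fell, against 55.8% of all genes (28.3% higher, 27.5% lower). Called members made up 24 of 33 (72.7%) in each genotype, and without Stc2, which passed the filter only through KO IFN-gamma libraries, 21 rose in KO. Their direction was mostly upward: the median change of the 33 members was 1.06 in WT and 1.10 in KO, against -0.01 over all genes in each. Members whose IFN-gamma and untreated libraries did not overlap numbered 25 in WT and 29 in KO, beside 71.1% and 68.9% of all genes. Genes that rose in both genotypes numbered 19 and those that fell in both were Shmt2 and Slc1a5. The largest rises were those of Nupr1, Psat1, Trib3, Cth and Ddit3 in WT, from 3.38 to 2.07 on the log2 scale. Atf5 and Slc38a2 fell by the test in WT and not in KO, and the difference of the responses passed for both. The low transcript Vldlr was also counted among the falls in WT, and without Stc2 and Vldlr 4 members fell there. The response of Vldlr was higher in KO by 1.82, given as a description.

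IL-4 moved fewer members, again mostly upward. In WT 15 rose and 2 fell, where 30.3% of all genes were called (16.3% higher, 14.0% lower). In KO 17 rose and Slc38a2 fell, against 30.2% of all genes (15.8% higher, 14.5% lower). The median change was 0.35 in WT and 0.54 in KO, beside -0.01 and 0.00 over all genes. Without WT IL-4 replicate 1 the WT count was 11 higher and 3 lower. Libraries did not overlap for 17 members in WT and 23 in KO, against 43.7% and 47.7% of all genes. The members that rose in all 4 responses were Atf4, Ddit3, Trib3, Ppp1r15a, Chac1, Psat1, Mthfd2, Asns and Slc3a2. Phgdh rose with IL-4 but not with IFN-gamma by the test, as did Psph and Gpt2 in both genotypes.

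**Figure D1:**
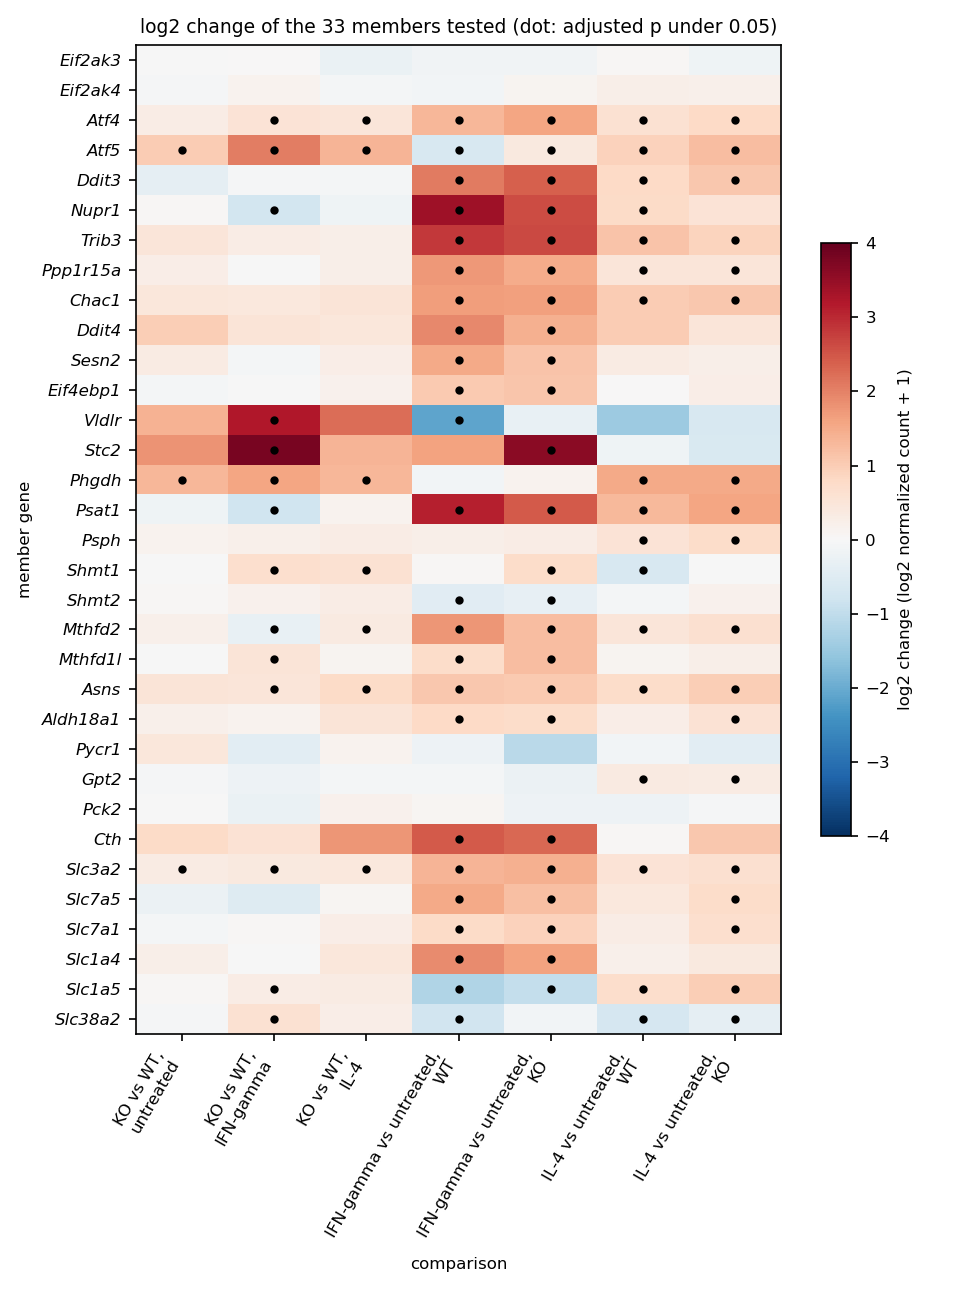
Log2 change of each of the 33 tested members (vertical axis) in the 3 genotype comparisons and the 4 treatment responses (horizontal axis), with colour from blue (lower) to red (higher) and a dot where the limma adjusted p was under 0.05. Dots fill most of the IFN-gamma columns (24 of 33 in each genotype) and only 3 cells of the untreated genotype column.

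Both sensor kinases kept narrow ranges. Eif2ak3, the PERK kinase of the endoplasmic reticulum, was at 819 to 1112 normalized counts over the 18 libraries. Eif2ak4, the GCN2 kinase that binds uncharged tRNA, was at 866 to 1345. Neither passed the main limma test in any of the comparisons. The largest genotype difference was that of Eif2ak3 under IL-4, at -0.26 ± 0.086 (adjusted p = 0.0841), which passed without KO IL-4 replicate 3 (0.049). With quantile normalization Eif2ak3 fell with IFN-gamma in WT (0.016) and KO (0.0343). The WT fall also passed without WT untreated replicate 2 (0.0339). Eif2ak4 rose with IL-4 in WT without WT IL-4 replicate 2 (0.00596).

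Atf4 (chr15:80255184-80257541, plus strand), the factor that gives the program its name, was higher in KO cells under both cytokines. Untreated WT libraries had 3728, 4137 and 4174 normalized counts and KO libraries 4998, 4578 and 5138. With IFN-gamma, WT reached 8907, 10946 and 10463 and KO 15283, 14976 and 13591. With IL-4, WT stood at 6519, 5754 and 5979 and KO at 8974, 8121 and 8673. Every KO library was above every WT library of its treatment. The genotype difference on the log2 scale was 0.54 ± 0.084 (adjusted p = 0.000165) under IFN-gamma and 0.50 ± 0.084 (adjusted p = 0.00165) under IL-4. In untreated cells it was 0.29 ± 0.084 (adjusted p = 0.0956) by limma, and it passed with DESeq2 on the recovered reads (0.0347), with quantile normalization (0.0441), in a fit of those 6 libraries alone (0.0383) and without WT IFN-gamma replicate 1 (0.0398). IFN-gamma raised Atf4 2.51-fold in WT and 2.98-fold in KO cells, and IL-4 raised it 1.52-fold and 1.75-fold.

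Atf5, a relative of ATF4 that is likewise held back at translation, had the largest genotype difference of the 4 factors in every treatment. It was measured at 1435, 1352 and 1446 normalized counts in untreated WT and 3045, 2375 and 3179 in untreated KO libraries. The IFN-gamma libraries had 795, 969 and 968 in WT and 4659.8, 3249 and 3522 in KO. The IL-4 libraries had 2642, 2728 and 2589 in WT and 7519.6, 5905 and 6965 in KO. KO and WT libraries did not overlap in any treatment, and under IFN-gamma the lowest KO library was more than 3 times the highest WT library. Atf5 was 2.02-fold higher in KO cells untreated, 4.15-fold under IFN-gamma and 2.55-fold under IL-4, with log2 differences of 1.01 ± 0.13 (adjusted p = 0.000269), 2.05 ± 0.13 (adjusted p = 1.32e-08) and 1.35 ± 0.13 (adjusted p = 6.92e-06). IFN-gamma lowered it in WT, by a log2 change of -0.64 (adjusted p = 0.00037), and raised it in KO, by 0.40 (adjusted p = 0.0135). That rise in KO cells missed the threshold with quantile normalization (0.257), without KO untreated replicate 2 (0.0961) and without KO IFN-gamma replicate 1 (0.101). The genotype difference of the IFN-gamma response was 1.04 ± 0.18 (adjusted p = 0.00179) and was called in every setting tried. Atf5 (chr7:44812256-44816658, minus strand) lies 2.03 Mb from Ldha on chromosome 7, so the flank of the altered Ldha locus and a change elsewhere cannot be told apart by position. Of the 95 genes tested within 3 Mb of Ldha, 1 was higher and 3 lower in untreated KO cells, 17 and 10 under IFN-gamma, and 4 and 4 under IL-4. Over all genes 1.98%, 27.9% and 6.59% were called in those comparisons, in either direction. Atf5 also shares 82 exon bases (4.11% of its exons) with the opposite-strand genes Nup62 and Il4i1, and the labels do not say whether counting used strand. Nup62, a nuclear pore subunit, differed between genotypes by 0.14 (adjusted p = 0.606), 0.14 (adjusted p = 0.279) and 0.12 (adjusted p = 0.451), and Il4i1 did not exceed 9.83 normalized counts in any library.

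Ddit3 (CHOP), a factor that ATF4 induces under lasting stress, rose with both cytokines and passed no genotype test. Untreated libraries had 1019, 1018 and 871 normalized counts in WT and 693, 747 and 810.0 in KO. Under IFN-gamma the values were 4249, 4089.9 and 3861 in WT and 4136, 3881 and 3676 in KO. Under IL-4 they were 2204, 1449 and 1494 in WT and 1415, 1625 and 1758 in KO. Untreated KO libraries lay below the untreated WT libraries, and the genotypes overlapped under both cytokines. The untreated difference was -0.37 ± 0.13 (adjusted p = 0.191), which passed in a fit of those libraries alone (0.0455) and without WT IL-4 replicate 1 (0.0347). IFN-gamma raised Ddit3 by 2.07 (adjusted p = 1.87e-10) in WT and 2.38 (adjusted p = 3.52e-11) in KO on the log2 scale. IL-4 raised it by 0.80 (adjusted p = 0.000117) and 1.09 (adjusted p = 4.02e-06). Ddit3 shares 105 exon bases (6.13%) with a second Ddit3 gene model on its own strand and 68 (3.97%) with Mars on the other, so reads there could have been assigned either way.

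Nupr1, a small stress-induced chromatin protein, had 4335, 2615 and 2584 normalized counts in WT and 1854, 1882 and 1849 in KO libraries under IFN-gamma, up from 374, 276 and 247 in WT and 279.7, 325 and 316 in KO in untreated cells. Under IL-4 it had 738, 429.5 and 403 in WT and 377, 454 and 513 in KO. The WT IFN-gamma libraries all lay above the KO libraries, with WT replicate 1 far above the others. The response was 3.38 (adjusted p = 3.26e-10) in WT and 2.60 (adjusted p = 1.42e-08) in KO, and the genotype difference under IFN-gamma was -0.73 ± 0.22 (adjusted p = 0.0196). That difference missed the threshold when WT IFN-gamma replicate 1 (0.117) or KO replicate 1 of that treatment (0.0534) was left out. The test of unequal responses gave -0.78 (adjusted p = 0.13), and the p was 0.00106 with the animal as a block and 0.0447 with it as a random effect. IL-4 raised Nupr1 in WT by 0.77 (adjusted p = 0.0119), a call lost in a fit of those libraries alone (0.0714), without WT IL-4 replicate 1 (0.0641) and without WT untreated replicate 3 (0.0662). In KO cells the IL-4 change was 0.54 (adjusted p = 0.0739), with an adjusted p of 0.000313 with the animal as a block and 0.0238 with it as a random effect.

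**Figure D2:**
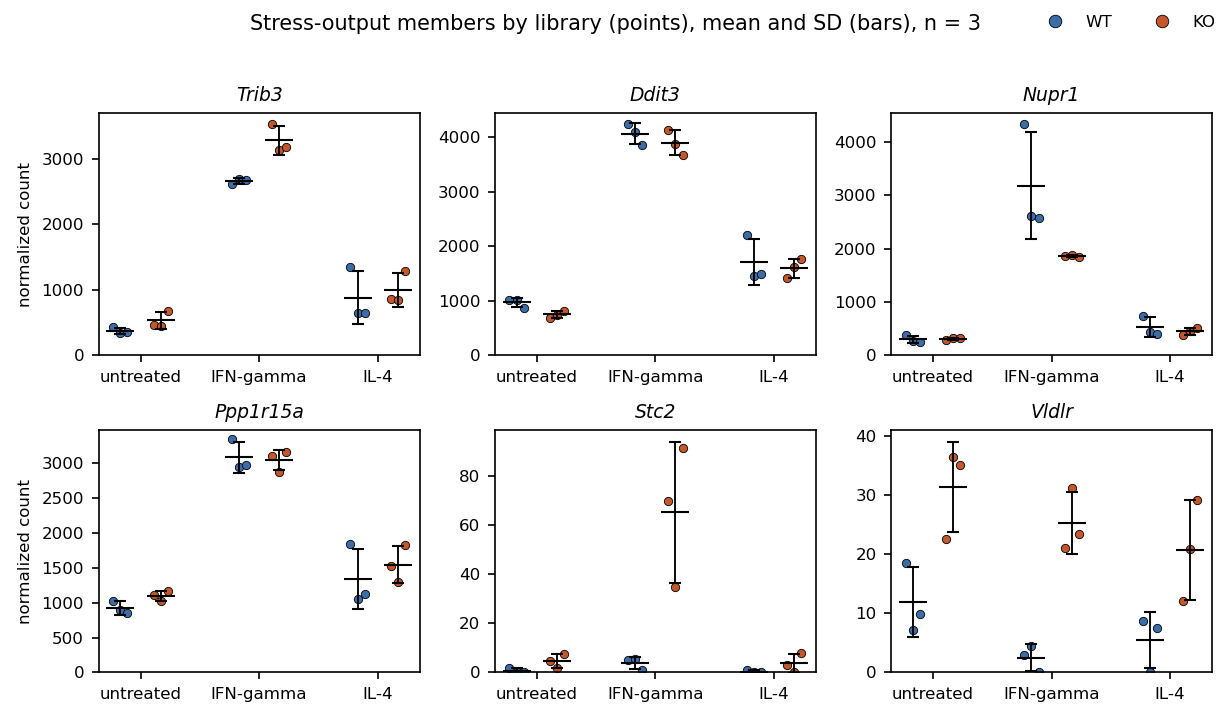
Normalized counts (vertical axes, each from 0) of Trib3, Ddit3, Nupr1, Ppp1r15a, Stc2 and Vldlr in WT and KO libraries by treatment (horizontal axes), with 1 point per library and mean and SD as bars (n = 3). Trib3, Ddit3 and Ppp1r15a climb with IFN-gamma in both genotypes, while Stc2 climbs to 34.6 to 91.3 in KO libraries with IFN-gamma and stays at or under 7.89 in all other groups.

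Of the 8 feedback and stress outputs, 6 rose and 1 fell with IFN-gamma in WT, and 7 rose in KO, beside 62.4% and 55.8% of all genes called. The 7 in KO include Stc2, which passed the filter only through the KO IFN-gamma libraries. The 1 that fell in WT was the low transcript Vldlr, with 7 reads in the WT IFN-gamma group. Trib3, a pseudokinase that restrains ATF4, was at 427, 335 and 358 normalized counts in untreated WT and 469.9, 443 and 683 in untreated KO libraries. IFN-gamma took it to 2612, 2694 and 2674 in WT and 3534, 3133 and 3177 in KO, and no treated library overlapped an untreated one. The IFN-gamma change was 7.15-fold in WT and 6.27-fold in KO (6.51e-09 and 2.14e-08, adjusted). With IL-4 the libraries had 1342, 652 and 648 in WT and 864, 838 and 1294 in KO, with WT replicate 1 well above the others of its group. The IL-4 rise was 1.16 (adjusted p = 0.000867) in WT and 0.90 (adjusted p = 0.00567) in KO, and the genotype differences were 0.49 (adjusted p = 0.408) untreated, 0.30 (adjusted p = 0.361) under IFN-gamma and 0.24 (adjusted p = 0.581) under IL-4. The IFN-gamma difference passed in a fit of those 6 libraries alone (0.0247).

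Ppp1r15a (GADD34), the phosphatase subunit that reverses eIF2 phosphorylation, rose with IFN-gamma by 1.75 in WT and 1.47 in KO on the log2 scale. Its IL-4 rises were 0.50 (adjusted p = 0.0262) and 0.48 (adjusted p = 0.0307). The WT IL-4 call was lost in a fit of those libraries alone (0.13), without WT untreated replicate 2 (0.0764) or 3 (0.102) and without WT IL-4 replicate 1 (0.133). The KO call was lost without KO untreated replicate 1 (0.0655) or 2 (0.108) and without KO IL-4 replicate 1 (0.0681) or 3 (0.132). Ppp1r15a lies 1.32 Mb from Ldha, and its genotype differences were 0.26 (adjusted p = 0.619), -0.02 (adjusted p = 0.948) and 0.24 (adjusted p = 0.409). The last of these, under IL-4, passed without WT IL-4 replicate 1 (0.0222). Chac1, which degrades glutathione, was a low transcript at 56.5, 37.0 and 44.8 normalized counts in untreated WT and 65.2, 51.1 and 74.3 in untreated KO libraries. It rose with IFN-gamma to 100.2, 163 and 191 in WT and 225, 234 and 145 in KO, by 1.67 (adjusted p = 0.000768) and 1.63 (adjusted p = 0.00105). With IL-4 it had 174, 52.5 and 88.1 in WT, where 1 library lay within the untreated range, and 157, 85.6 and 174 in KO. The IL-4 changes of 1.02 (adjusted p = 0.0448) and 1.07 (adjusted p = 0.0354) were lost in 12 and 4 of 29 settings, with adjusted p up to 0.215 without WT IL-4 replicate 1 and 0.128 without KO untreated replicate 2.

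Ddit4 (REDD1), an inhibitor of mTORC1, had 339.8, 72.1 and 74.3 normalized counts under IFN-gamma in WT, where 1 library was more than 4 times the others, and 186, 147 and 193 in KO. The untreated libraries had 45.8, 25.3 and 27.7 in WT and 56.1, 62.4 and 75.1 in KO, and the rises were 1.91 (adjusted p = 0.00736) in WT and 1.43 (adjusted p = 0.0409) in KO. The WT call was lost without WT IFN-gamma replicate 1 (0.0582), and the KO call without any 1 of the 6 KO untreated and KO IFN-gamma libraries (0.058 to 0.101). Sesn2, a leucine-sensing brake on mTORC1, went from 849.8 ± 72.2 to 2446 ± 41.5 normalized counts (mean ± SD, n = 3) in WT and from 1072 ± 63.1 to 2342 ± 73.3 in KO with IFN-gamma. These rises were 1.53 (adjusted p = 3.48e-08) and 1.13 (adjusted p = 2.04e-06). Eif4ebp1, which blocks cap-dependent translation, rose by 1.06 (adjusted p = 3.67e-08) and 1.10 (adjusted p = 2.88e-08). Between genotypes these 3 genes did not pass in the main limma fit. Sesn2 was higher in untreated KO cells in a fit of those libraries alone (0.0418), and under IL-4 without WT IL-4 replicate 1 (0.0178). The IL-4 responses of the 3 genes did not pass in the main fit either. With the animal as a block the adjusted p was 0.015 for Ddit4 and 0.0435 for Sesn2 in WT (from 0.198 and 0.0945). For Eif4ebp1 in KO it was 0.031 (from 0.0564). With the animal as a random effect, Eif4ebp1 passed (0.0311), and Sesn2 (0.0556) and Ddit4 (0.106) did not.

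The other members of that class were near the detection limit in WT and higher in KO cells under IFN-gamma. Stc2, a secreted glycoprotein induced by ATF4, was listed at 4.91, 5.64 and 1.18 normalized counts in WT and 69.6, 34.6 and 91.3 in KO IFN-gamma libraries. The untreated libraries had 1.95, 0 and 0 in WT and 4.53, 1.73 and 7.35 in KO, and the IL-4 libraries 1.09, 0 and 0 in WT and 3.02, 0 and 7.89 in KO. All KO IFN-gamma libraries stood above all others of the series for this gene. Stc2 passed the filter on low values only through those 3 libraries, so its log2 difference of 3.80 between genotypes under IFN-gamma and its change of 3.62 with IFN-gamma in KO are given as a description, with no test. The WT change with IFN-gamma was 1.62, likewise as a description. The WT IFN-gamma group held 11 reads in all, so the size of these changes depends on the pseudocount. Vldlr (chr19:27216484-27254231, plus strand), a lipoprotein receptor known as an ATF4 target, had 18.5, 7.22 and 9.88 normalized counts in untreated WT and 22.6, 36.4 and 35.1 in untreated KO libraries. It had 2.95, 4.51 and 0 in WT and 21.1, 31.2 and 23.5 in KO under IFN-gamma, and 8.74, 0 and 7.5 in WT and 12.1, 20.9 and 29.1 in KO under IL-4. Of the 10 libraries in which Vldlr reached the count minimum, 9 were KO, so its entry into the test rested on the KO groups. KO libraries were above WT libraries in each treatment without overlap. The log2 differences of 1.40 untreated, 3.21 under IFN-gamma and 2.23 under IL-4 are given as a description, with no test. The WT IFN-gamma group held 7 Vldlr reads. The fall of Vldlr with IFN-gamma in WT was -2.11 and is likewise a description. Its call in the main fit was lost without WT untreated replicate 1 and without WT IFN-gamma replicate 3.

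**Figure D3:**
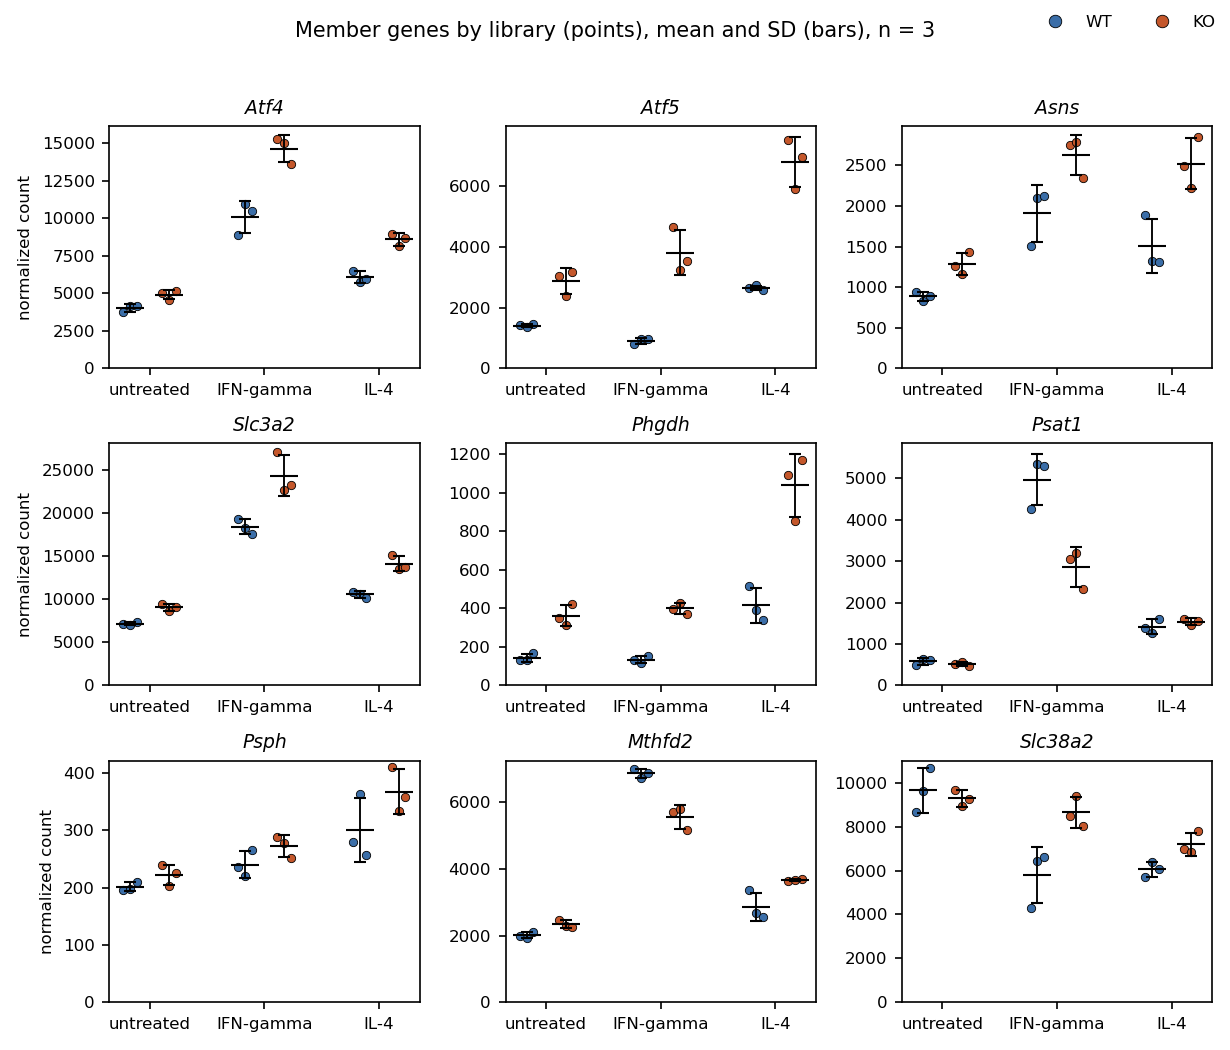
Normalized counts (vertical axes, each from 0) of Atf4, Atf5, Asns, Slc3a2, Phgdh, Psat1, Psph, Mthfd2 and Slc38a2 in WT and KO libraries by treatment (horizontal axes), with 1 point per library and mean and SD as bars (n = 3). Phgdh sits higher in KO in each treatment (316 to 421 against 132 to 169 untreated), while Psat1 sits higher in WT under IFN-gamma (4252 to 5339 against 2319 to 3200).

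The enzymes of serine synthesis did not move as a unit. Phgdh (chr3:98313170-98339990, minus strand), which commits 3-phosphoglycerate to serine, rose in KO cells under every treatment and rose with IL-4. Psat1, the aminotransferase of the next step, rose with both cytokines and was lower in KO than in WT cells under IFN-gamma. Psph, the phosphatase of the last step, rose with IL-4 in both genotypes and passed no genotype test in the main limma fit. Its higher level in KO under IL-4 passed without WT IL-4 replicate 2 (0.0396). Of the 7 serine and folate enzymes, 1 rose in untreated KO cells, 3 rose and 2 fell under IFN-gamma, and 3 rose under IL-4, where 1.98%, 27.9% and 6.59% of all genes were called.

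For Phgdh, untreated libraries had 132, 134 and 169 normalized counts in WT and 351, 316 and 421 in KO. IFN-gamma libraries had 131, 116 and 153 in WT and 399, 428 and 372 in KO. IL-4 libraries had 514, 393 and 340.1 in WT and 1093, 856 and 1169 in KO. The genotypes stood apart in each treatment, the lowest KO library being well above the highest WT library. The difference was 2.5-fold untreated, 3.0-fold under IFN-gamma and 2.51-fold under IL-4, with log2 values of 1.32 ± 0.17 (adjusted p = 0.000206), 1.58 ± 0.17 (adjusted p = 3e-06) and 1.33 ± 0.17 (adjusted p = 0.000127). IL-4 raised Phgdh by much the same log2 change in both genotypes, 1.51 (adjusted p = 2.23e-06) in WT and 1.51 (adjusted p = 1.86e-06) in KO. With IFN-gamma the change was -0.12 (adjusted p = 0.567) in WT and 0.15 (adjusted p = 0.473) in KO. The calls for Phgdh held in every setting tried. A processed pseudogene, Phgdh-ps1, lies on chromosome 7, and the labels do not say how reads shared with it were counted.

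Psat1 (chr19:15904678-15947337, minus strand) had 494, 643 and 603 normalized counts in untreated WT and 511, 559.5 and 475 in untreated KO libraries. IFN-gamma took these to 4252, 5339 and 5306 in WT and 3060.4, 3200.3 and 2319 in KO. IL-4 libraries had 1381, 1259 and 1607 in WT and 1609.5, 1453 and 1561 in KO. Under IFN-gamma every WT library was above every KO library, while the genotypes overlapped in the other treatments. The IFN-gamma rise was 8.56-fold in WT and 5.5-fold in KO, and the difference of the log2 responses was -0.64 ± 0.19 (adjusted p = 0.0387). That call was lost in 9 of 29 settings: with quantile normalization (0.0945), and without WT untreated replicate 1 (0.101) or 3 (0.0626), KO untreated replicate 1 (0.0697), 2 (0.102) or 3 (0.0518), WT IFN-gamma replicate 2 (0.0829) or 3 (0.0812), or KO IFN-gamma replicate 3 (0.0945). The genotype difference under IFN-gamma itself, -0.80 ± 0.13 (adjusted p = 0.000255), was called in every setting. IL-4 raised Psat1 by 1.29 (adjusted p = 8.69e-07) in WT and 1.58 (adjusted p = 6.35e-08) in KO.

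Psph libraries had 196, 198 and 211 normalized counts in untreated WT and 239, 204 and 225 in untreated KO, and 281, 364 and 257 in WT and 411, 333 and 359 in KO under IL-4. All IL-4 libraries lay above all untreated libraries of their genotype, with rises of 0.56 (adjusted p = 0.00364) and 0.72 (adjusted p = 0.000408). The IFN-gamma changes were 0.25 (adjusted p = 0.113) in WT and 0.30 (adjusted p = 0.0662) in KO. The opposite-strand Cct6a transcript covers 452 exon bases of Psph (10.4%), so part of its count could belong to that gene. Set on a scale of normalized counts per kilobase of exon, the order of the serine enzymes differed between groups. The length was that of all annotated exons of a gene merged: 4254 bases for Psat1, 2486 for Phgdh and 4329 for Psph. Which transcripts the cells made was not tested, so the order depends on these lengths. Untreated WT cells had 136 for Psat1, 58.1 for Phgdh and 46.6 for Psph. Untreated KO cells had 121, 146 and 51.4, so Phgdh was first there on this scale. By mean normalized count Psat1 was above Phgdh in KO cells, at 515 against 363 untreated and 1541 against 1039 under IL-4. WT cells under IFN-gamma had 1167, 53.6 and 55.5, and KO cells 672, 161 and 63.2. Under IL-4 the values were 333, 167 and 69.4 in WT and 362, 418 and 84.9 in KO. Psph and Phgdh were close to each other in WT untreated and IFN-gamma cells on this scale.

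Among the folate enzymes, Mthfd2, the mitochondrial dehydrogenase that carries serine-derived carbon, had 1988, 1931 and 2109.6 normalized counts in untreated WT and 2479, 2283 and 2256 in untreated KO libraries. IFN-gamma libraries had 6979.8, 6715 and 6876 in WT and 5715, 5793 and 5152 in KO, and IL-4 libraries 3353, 2666 and 2557 in WT and 3642, 3670.2 and 3683 in KO. KO libraries were above WT libraries in untreated cells and below them with IFN-gamma, without overlap. The IFN-gamma rise was 1.77 in WT and 1.25 in KO, and their difference of -0.52 ± 0.12 (adjusted p = 0.0101) was called in every setting. Mthfd2 was lower in KO cells under IFN-gamma, at -0.31 ± 0.084 (adjusted p = 0.0117), a call lost without KO IFN-gamma replicate 3 (0.0582), and higher under IL-4, at 0.37 ± 0.084 (adjusted p = 0.0139), a call lost in a fit of those libraries alone (0.212) and without WT IL-4 replicate 3 (0.0588). The untreated difference was 0.22 (adjusted p = 0.259).

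Mthfd1l, which releases formate from mitochondria, had 661, 906 and 797 normalized counts in WT and 1254, 1055 and 1066 in KO libraries under IFN-gamma. The untreated libraries had 429, 514 and 478 in WT and 474, 464 and 474 in KO, and the IL-4 libraries 412, 619.7 and 531 in WT and 481, 514 and 668 in KO. KO libraries lay above WT libraries under IFN-gamma, by 0.52 ± 0.15 (adjusted p = 0.0157), and the call was lost on leaving out WT IFN-gamma replicate 1 (0.0813) or KO replicate 1 of that treatment (0.0749). Its IFN-gamma rise was 0.73 (adjusted p = 0.000414) in WT and 1.25 (adjusted p = 1.36e-06) in KO. Shmt1, the cytosolic serine hydroxymethyltransferase, had 178, 129.6 and 149.8 in WT and 225, 253 and 249 in KO IFN-gamma libraries, from 148, 131 and 164 in WT and 137, 161 and 139 in KO untreated. It was higher in KO cells under IFN-gamma, at 0.68 ± 0.18 (adjusted p = 0.00861), and rose with IFN-gamma in KO cells, by 0.73 (adjusted p = 0.00181), while the WT change was 0.04 (adjusted p = 0.861) and the difference of the responses 0.69 (adjusted p = 0.0954). Under IL-4 it had 126, 78.7 and 86.3 in WT and 125, 165 and 146 in KO libraries, which overlapped by the lowest KO and the highest WT library. That difference, 0.60 (adjusted p = 0.0498), was called in 7 of 29 settings only, with adjusted p up to 0.325 in a fit of those libraries alone. The fall with IL-4 in WT, -0.63 (adjusted p = 0.0117), was lost in such a fit (0.0782), without WT untreated replicate 3 (0.06) and without WT IL-4 replicate 2 (0.054). Shmt2, its mitochondrial counterpart, fell with IFN-gamma from 995, 1092 and 1151 to 600.1, 898 and 894 normalized counts in WT and from 1161, 1079 and 1103 to 989, 932 and 769.6 in KO, with log2 changes of -0.46 (adjusted p = 0.00431) and -0.32 (adjusted p = 0.0386). The KO call was lost without KO untreated replicate 1 (0.108), 2 (0.0605) or 3 (0.0722) and without KO IFN-gamma replicate 2 (0.0517) or 3 (0.192). The IL-4 libraries had 1027, 990.2 and 1076 in WT and 1296, 1258 and 1224 in KO.

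Asns (chr6:7675169-7693254, minus strand), which makes asparagine and whose promoter window holds the core printed above, had 939, 833 and 890.5 normalized counts in untreated WT and 1260.2, 1162 and 1434 in untreated KO libraries. With IFN-gamma the libraries had 1501, 2100.2 and 2125 in WT and 2755, 2785 and 2340.2 in KO. With IL-4 they had 1885, 1318 and 1307 in WT and 2486, 2225 and 2849 in KO. KO libraries were above WT libraries in every treatment without overlap, and all treated libraries were above the untreated libraries of their genotype. The genotype difference was 0.47 ± 0.15 (adjusted p = 0.0246) under IFN-gamma and 0.76 ± 0.15 (adjusted p = 0.00519) under IL-4. The IFN-gamma call was lost in a fit of those libraries alone (0.0554) and on leaving out WT replicate 1 (0.139), KO replicate 1 (0.0824) or KO replicate 2 (0.0826) of that treatment, as was the IL-4 call in such a fit (0.104). In untreated cells the difference of 0.53 (adjusted p = 0.0834) passed with DESeq2 (0.0231), in a fit of those libraries alone (0.016), without WT IFN-gamma replicate 1 (0.0346) and without WT IL-4 replicate 1 (0.0317). IFN-gamma raised Asns by 1.09 and 1.03, and IL-4 by 0.74 and 0.97, in WT and KO on the log2 scale.

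The remaining amino acid enzymes passed no genotype test in the main limma fit. Under IL-4, Cth was higher in KO with DESeq2 (0.0413) and without WT IL-4 replicate 2 (0.00957). Aldh18a1 was higher in KO under IL-4 without WT IL-4 replicate 1 (0.0398). Cth, which makes cysteine from cystathionine, was a low transcript that rose with IFN-gamma from 9.74, 3.61 and 1.98 to 23.6, 31.6 and 29.5 normalized counts in WT and from 5.43, 6.06 and 14.7 to 51.3, 26.0 and 58.3 in KO libraries. These rises were 2.46 (adjusted p = 0.00245) and 2.29 (adjusted p = 0.00471). The IL-4 libraries had 3.28, 16.4 and 1.25 in WT and 14.1, 14.6 and 27.3 in KO, with 10 reads in all in WT. Aldh18a1, the first enzyme of proline synthesis, rose with IFN-gamma by 0.79 (adjusted p = 0.00173) and 0.74 (adjusted p = 0.00328). Its IL-4 change was 0.27 (adjusted p = 0.308) in WT and 0.58 (adjusted p = 0.0289) in KO, the latter lost without KO untreated replicate 1 (0.116) and without KO IL-4 replicate 1 (0.0559) or 3 (0.101). Gpt2, the mitochondrial alanine aminotransferase, rose slightly with IL-4, by 0.35 (adjusted p = 0.0167) in WT and 0.33 (adjusted p = 0.0247) in KO. The WT call for Gpt2 was lost without WT untreated replicate 3 (0.091) and without WT IL-4 replicate 1 (0.0677), and the KO call in a fit of those libraries alone (0.0654), without KO untreated replicate 1 (0.1) or 2 (0.0639) and without KO IL-4 replicate 3 (0.131). With IFN-gamma its KO change was -0.24 (adjusted p = 0.0649), with 0.0451 under the animal block. Pycr1, which completes proline synthesis, was low at 3.28 to 21.2 normalized counts, and Pck2, the mitochondrial phosphoenolpyruvate carboxykinase, lay at 1416 to 2192. The core stands in the promoter windows of both, and neither passed the main limma test in any comparison. Pycr1 fell with IFN-gamma in KO in a fit of those libraries alone (0.0141). Pck2 was lower in KO under IFN-gamma in such a fit (0.0494) and without WT IL-4 replicate 1 (0.0308). Its fall with IFN-gamma in KO passed with quantile normalization (0.0145), and that with IL-4 in WT without WT IL-4 replicate 1 (0.00747).

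**Figure D4:**
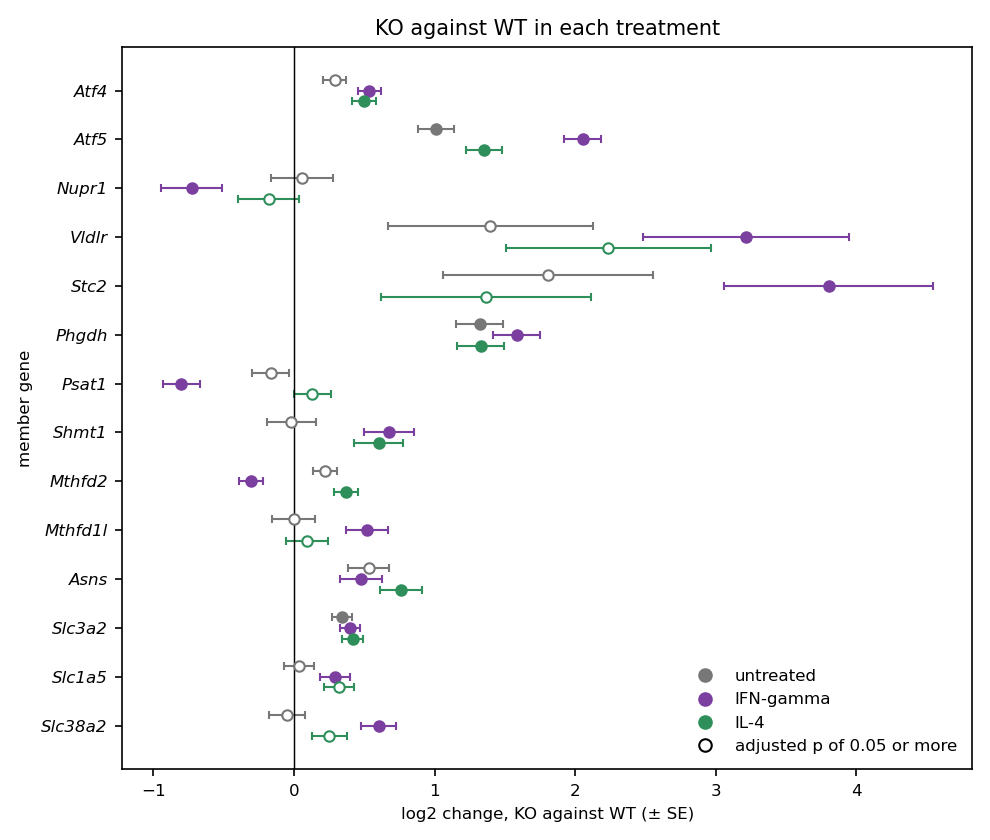
Log2 difference between KO and WT (horizontal axis, on log2(normalized count + 1), with SE as bars) in untreated, IFN-gamma and IL-4 cells. Only the 14 members called between genotypes in at least 1 treatment are drawn (vertical axis), and the 19 called in none are left out. Filled points had an adjusted p under 0.05 by limma, and the points of Stc2 and Vldlr are a description only. Atf5 and Phgdh stand to the right of 0 under all 3 treatments, by 1.01 to 2.05 and 1.32 to 1.58, while Psat1 is at -0.80 with IFN-gamma and near 0 otherwise.

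Slc3a2 (chr19:8706882-8723369, minus strand), the heavy chain that pairs with several amino acid exchangers, had 7191, 6999 and 7360.1 normalized counts in untreated WT and 9456, 8676 and 9168 in untreated KO libraries. IFN-gamma libraries had 19361, 18343 and 17637 in WT and 27116, 22676 and 23350.1 in KO, and IL-4 libraries 10878, 10639 and 10189 in WT and 15135, 13490.0 and 13765 in KO. KO libraries were above WT libraries in each treatment without overlap. The differences were small but even, at 0.34 ± 0.074 (adjusted p = 0.02) untreated, 0.40 ± 0.074 (adjusted p = 0.00072) under IFN-gamma and 0.42 ± 0.074 (adjusted p = 0.00249) under IL-4. The untreated call was lost without WT untreated replicate 1 (0.062), 2 (0.115) or 3 (0.0627) and without KO untreated replicate 1 (0.12) or 3 (0.0918), and the IL-4 call in a fit of those libraries alone (0.0852). IFN-gamma raised Slc3a2 by 1.36 and 1.42, and IL-4 by 0.56 and 0.63, in WT and KO on the log2 scale.

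Slc7a5 (LAT1), the leucine exchanger that SLC3A2 carries, had 503, 935 and 1044 normalized counts in WT and 587, 526 and 529 in KO libraries under IFN-gamma, and 254, 271 and 299.7 in WT and 225, 209.6 and 274 in KO in untreated cells. WT IFN-gamma replicate 1 was below all KO IFN-gamma libraries and the other WT libraries were above them. The genotype difference was -0.53 ± 0.22 (adjusted p = 0.0842) by limma, and it passed without that library (0.00228), with edgeR (0.0461) and with DESeq2 (0.0287). Slc7a5 rose with IFN-gamma by 1.52 (adjusted p = 1.01e-05) in WT and 1.22 (adjusted p = 0.000139) in KO, and with IL-4 in KO by 0.73 (adjusted p = 0.0173), where the WT change was 0.43 (adjusted p = 0.157). The KO IL-4 call was lost without KO untreated replicate 1 (0.0542) or 2 (0.0729) and without KO IL-4 replicate 3 (0.0926), and the WT change passed in a fit of those libraries alone (0.0438) and without WT IFN-gamma replicate 1 (0.0469). Slc7a1, the arginine and lysine transporter, rose with IFN-gamma by 0.77 (adjusted p = 0.000419) and 0.91 (adjusted p = 9.55e-05), and with IL-4 in KO by 0.67 (adjusted p = 0.00351), against 0.31 (adjusted p = 0.154) in WT. Slc1a4, which exchanges serine, alanine and cysteine, rose with IFN-gamma by 1.88 (adjusted p = 2.01e-05) and 1.61 (adjusted p = 0.000124).

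Slc1a5 and Slc38a2, both glutamine and neutral amino acid carriers, moved the other way with IFN-gamma. Slc1a5 (ASCT2) had 1057, 1147 and 1008 normalized counts in untreated WT and 1195, 1082 and 1019.8 in untreated KO libraries, 414, 457 and 515 in WT and 615, 565 and 515 in KO with IFN-gamma, and 1625, 1646 and 1999 in WT and 2408, 2078 and 2084 in KO with IL-4. Untreated libraries lay above all IFN-gamma libraries and below all IL-4 libraries of their genotype. It fell with IFN-gamma, with log2 changes of -1.21 (adjusted p = 1.71e-08) in WT and -0.96 (adjusted p = 4.57e-07) in KO, and rose with IL-4 by 0.71 (adjusted p = 5.53e-05) and 0.99 (adjusted p = 1.28e-06). The higher level in KO cells under IFN-gamma, 0.29 (adjusted p = 0.0488), was called in 11 of 29 settings, with adjusted p up to 0.187 without WT IFN-gamma replicate 1, and there the highest WT and the lowest KO library were level. Slc38a2 (SNAT2), itself inducible by amino acid shortage, had 8653, 9603 and 10687 in untreated WT and 9681, 8939.6 and 9233 in untreated KO libraries. IFN-gamma libraries had 4307, 6411 and 6631 in WT and 8494, 9407 and 8029 in KO, and IL-4 libraries 5717, 6374 and 6051 in WT and 6961, 6847 and 7796 in KO. All WT IFN-gamma libraries were below the untreated WT libraries and below all KO IFN-gamma libraries, whereas KO IFN-gamma and untreated libraries overlapped. It fell with IFN-gamma in WT, with a log2 change of -0.76 (adjusted p = 4.55e-05), the KO change was -0.11 (adjusted p = 0.498), and KO exceeded WT under IFN-gamma by 0.60 ± 0.13 (adjusted p = 0.00193). With IL-4 it fell in both genotypes, with log2 changes of -0.67 (adjusted p = 0.000531) in WT and -0.37 (adjusted p = 0.0341) in KO. The KO fall was lost without KO untreated replicate 1 (0.104), 2 (0.0596) or 3 (0.0764) and without KO IL-4 replicate 1 (0.0964) or 2 (0.107).

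Whether the genotypes answered a cytokine to different extents was tested directly. For IFN-gamma 4 of 33 members passed (12.1%), beside 9.15% of all genes (4.30% with a higher response in KO, 4.84% with a lower one). Atf5 and Slc38a2 had the higher response in KO, at 1.04 ± 0.18 (adjusted p = 0.00179) and 0.65 ± 0.18 (adjusted p = 0.0286), and Psat1 and Mthfd2 the lower, at -0.64 ± 0.19 (adjusted p = 0.0387) and -0.52 ± 0.12 (adjusted p = 0.0101). The Slc38a2 call was lost without WT untreated replicate 2 (0.0625) or 3 (0.0821), KO untreated replicate 2 (0.0693) or 3 (0.0634), or KO IFN-gamma replicate 1 (0.0537) or 2 (0.0723). The count was 2 without WT untreated replicate 3, without KO untreated replicate 2 and without KO untreated replicate 3, and 7 with the animal as a block, which added Nupr1 (0.00106), Mthfd1l (0.035, from 0.142) and Shmt1 (0.029, from 0.0954). For IL-4 the limma count was 0 of 33, with 1 member at an unadjusted p under 0.05, and edgeR and DESeq2 also called 0. Over all genes 0.00700% passed that test.

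**Figure D5:**
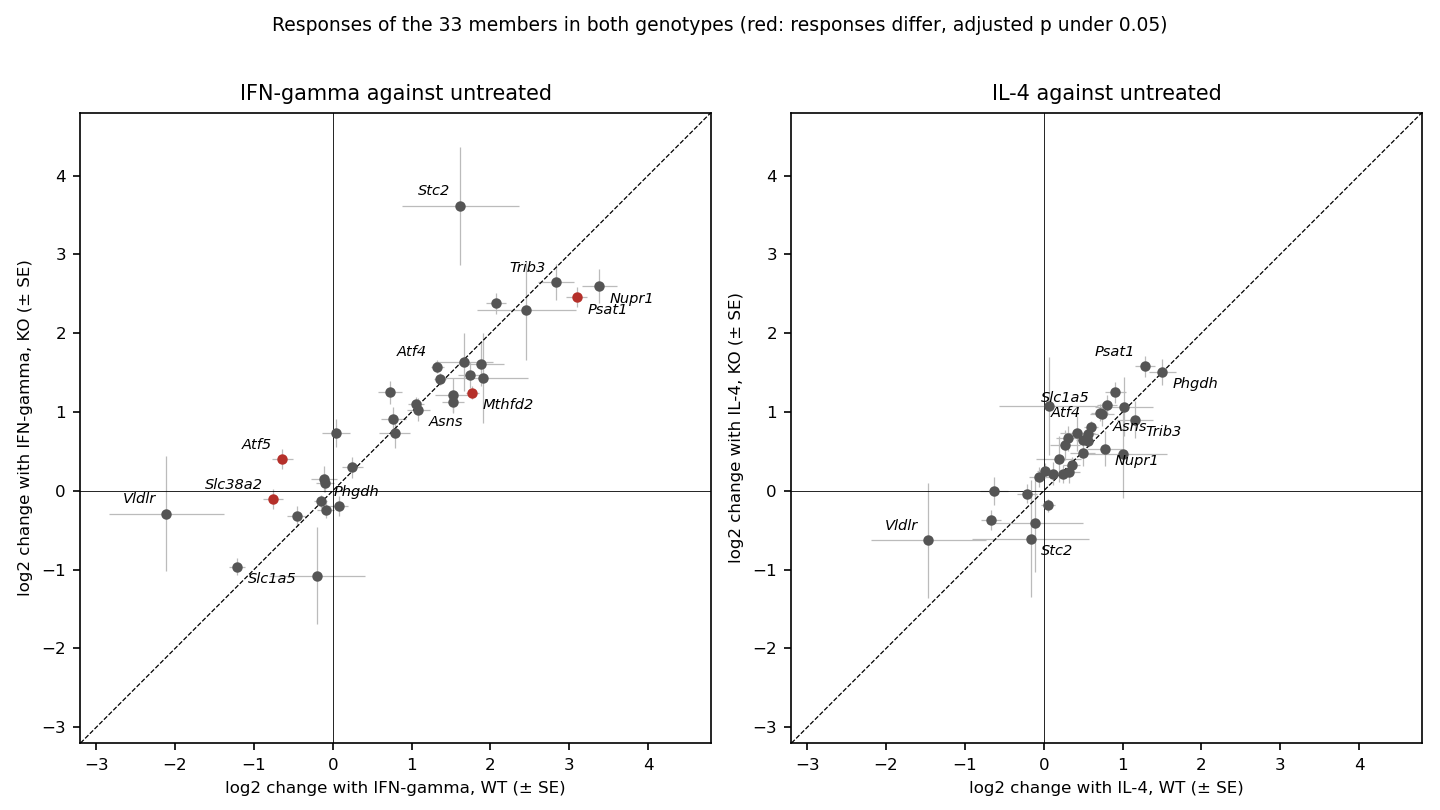
Log2 change in WT (horizontal axis) against log2 change in KO (vertical axis) of the 33 members, with SE as bars, for IFN-gamma (left) and IL-4 (right), and a line of equal change. Atf5 (-0.64 in WT, 0.40 in KO) and Slc38a2 (-0.76, -0.11) lie above the line and Psat1 (3.10, 2.46) and Mthfd2 (1.77, 1.25) below it, drawn in red because their responses differed by the test.

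In the 3 genotype comparisons, the 33 members had a positive change in 21 untreated, 21 under IFN-gamma and 28 under IL-4. The share of all genes with a positive change was not counted, so these counts are a description. The median change over all genes was 0.01 in each comparison. KO and WT libraries did not overlap for 13, 16 and 12 members, where 30.1%, 42.6% and 20.1% of all genes did not overlap. Averaged over the treatments of each animal (3 means against 3), 7 members passed as higher in KO: Atf4, Atf5, Vldlr, Stc2, Phgdh, Asns and Slc3a2, or 5 without Stc2 and Vldlr, whose entry into the test rested on KO libraries. Over all genes 11.3% were called in that comparison (6.33% higher). The differences were 0.44 ± 0.053 (adjusted p = 0.00201) for Atf4, 1.47 ± 0.094 (adjusted p = 0.000142) for Atf5, 1.41 ± 0.093 (adjusted p = 0.000157) for Phgdh, 0.59 ± 0.057 (adjusted p = 0.000759) for Asns and 0.39 ± 0.061 (adjusted p = 0.00669) for Slc3a2. For Vldlr the difference was 2.28 and for Stc2 2.32, both as a description. Without WT animal 1 the count in either direction was 11. Among those added, Trib3 (0.026) and Ddit4 (0.00689) were higher and Psat1 (0.0175) was lower in KO.

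Further genes of the pathway were taken from lists drawn up by function. In untreated cells 2 of 14 other amino acid transporters and 1 of 14 other amino acid enzymes rose in KO, where 1.46% of all genes were called higher. Slc7a11, the cystine importer that pairs with SLC3A2, was 7.3-fold higher in untreated KO cells, from a mean of 373 to 2734 normalized counts. Its differences were 2.87 ± 0.34 (adjusted p = 0.00012) untreated, 2.34 ± 0.34 (adjusted p = 8.92e-05) under IFN-gamma and 2.56 ± 0.34 (adjusted p = 0.000214) under IL-4. Slc6a9, a glycine transporter, was higher in KO by 2.45 (adjusted p = 3.29e-05), 0.94 (adjusted p = 0.0128) and 1.5 (adjusted p = 0.00231). Ass1, which makes argininosuccinate from citrulline, was higher by 1.85 (adjusted p = 0.00053) untreated and 1.71 (adjusted p = 0.000649) under IL-4, with 0.45 (adjusted p = 0.21) under IFN-gamma. In the 4 lists without an untreated call by limma, unadjusted p under 0.05 was seen for 2 higher genes of 9 ATF4 partners, for 1 higher and 2 lower of 20 tRNA synthetases, for 1 higher and 1 lower of 15 folate and glycine genes, and for 0 of 12 genes of eIF2 and its control.

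Under IFN-gamma each list had genes called in both directions between genotypes. Other transporters had 7 higher and 2 lower in KO, folate and glycine genes 5 and 3, tRNA synthetases 2 and 3, eIF2 genes 2 and 2, ATF4 partners 1 and 2, and other enzymes 1 and 3, of 14, 15, 20, 12, 9 and 14 tested. Over all genes 14.3% were higher and 13.6% lower, and the 25.0% called among tRNA synthetases and the 28.6% among other enzymes were near the 27.9% of all genes. Gdf15, a secreted stress signal, was higher in KO by 1.12 (adjusted p = 0.000111), and Impact, an inhibitor of GCN2, by 0.92 (adjusted p = 2.82e-07). Sesn1 was lower in KO, at -0.66 (adjusted p = 0.000246), the valine tRNA synthetase Vars at -0.57 (adjusted p = 8.49e-05) and the folate dehydrogenase Aldh1l1 at -0.73 (adjusted p = 0.00175). Under IL-4, tRNA synthetases had 3 higher and 1 lower of 20 in KO (3.46% and 3.13% of all genes), and Impact was higher by 0.53 (adjusted p = 0.00046).

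The tRNA synthetases rose with the cytokines in most cases. Of 20, 15 rose and 4 fell with IFN-gamma in WT and 14 and 3 in KO, and with IL-4 14 rose in WT and 16 in KO. Of all genes, IFN-gamma raised 31.4% in WT and 28.3% in KO cells, and IL-4 raised 16.3% and 15.8%. Wars, the tryptophan enzyme known as an interferon target, rose with IFN-gamma by 3.04 (adjusted p = 4.65e-14) in WT and 3.52 (adjusted p = 1e-14) in KO. Aars, the alanine enzyme, rose with IFN-gamma by 1.77 and 1.77, and Rars, the arginine enzyme, with IL-4 by 1.22 and 1.34. Of 9 ATF4 partners, 7 rose and 1 fell with IFN-gamma in WT and 6 and 1 in KO. Atf3 rose in all 4 responses: the log2 change was 1.48 in WT and 1.03 in KO for IFN-gamma, then 1.03 and 0.98 for IL-4. Jdp2, a repressor of the same bZIP family, rose with IFN-gamma by 4.20 and 4.03. Of 12 genes of eIF2 and its control, 7 rose and 2 fell with IFN-gamma in each genotype, among them Ppp1r15b, the constitutive partner of the eIF2 phosphatase, by 1.62 and 1.46. Of 15 folate and glycine genes outside the members, 2 were higher and 7 lower with IFN-gamma in WT and 2 and 8 in KO. Of all genes, 62.4% in WT and 55.8% in KO were called with IFN-gamma, with 31.1% and 27.5% lower.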

How the data were processed

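The deposited table holds normalized counts per gene and library: signal on a linear scale that the authors obtained by dividing read counts by a size factor per library. Per the submitters' processing notes, the tools were STAR 2.5, HTSeq 0.6, DESeq2 and edgeR with build GRCm38; for the role of each, the annotation and the strand setting the sources used here give nothing. Of its 21428 entries, 34 gene identifiers are listed more than once, leaving 21380. Low values are whole multiples of 1 step per library, so whole reads were recovered (100% of values whole at a tolerance of 0.1); totals ranged from 9772945 to 49537719 reads, and the depth sets the counting error of low transcripts. Genes reaching a normalized count of 10 in at least 3 libraries were tested with limma 3.58.1 (R 4.3.3) on log2(normalized count + 1), in 1 model of the 6 groups (12 residual degrees of freedom), and adjusted p-values are Benjamini-Hochberg over 14288 genes with a threshold of 0.05. The errors given with log2 changes are standard errors, two-sided tests were used throughout, and each group has 3 libraries. Animal means were compared with the same method. edgeR 4.0.16 and DESeq2 1.42.0 on recovered reads, other normalizations, filters and pseudocounts, a fit of the compared groups alone, blocks and each library left out were tried as alternatives. The limma procedure was also run on simulated independent libraries with a fixed dispersion and no animal effect, for the untreated genotype comparison only. That run cannot show how the test behaves with replicates as uneven as these.

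Replicates are separate animals by their codes, and each animal joins the treatments; deviations of libraries of 1 animal correlated at 0.00363 to 0.243 (13 of 18 pairs above 0.1), and those sharing only a number across genotypes at -0.212 to 0.104 (1 of 9 pairs). The members and the other lists were chosen with earlier results of these data known. Values in every library are given for members called between genotypes (up to 12), for the 5 largest called rises and falls of each WT response and for members whose responses differed; other members are given by range or mean, some also by library. From the other lists, called genes with the smallest adjusted p were named, up to 3 per list and comparison, and some called genes were left out for length.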

Additional observations from a re-analysis of the deposited data

Results flagged for a closer look

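For 4 members the log2 response to IFN-gamma differed between KO and WT cells by the limma test of that difference, with 3 animals per genotype. The response of Atf5 was higher in KO by 1.04 (adjusted p = 0.00179), and it fell in WT while it rose in KO. Slc38a2 had a response higher in KO by 0.65 (adjusted p = 0.0286). The response of Psat1 differed by -0.64 (adjusted p = 0.0387) and that of Mthfd2 by -0.52 (adjusted p = 0.0101), both lower in KO. Over all genes tested, 9.15% passed the same test.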

How the results depend on the processing

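Of 330 tests of a member in a comparison, 118 were called, and 89 of these were called with the same sign under all 11 alternatives that kept the libraries and with each of the 18 libraries (in the animal means, each animal) left out. No called result changed direction, and 69 uncalled results changed sign in some setting without being called in either. The count of members called between genotypes in untreated cells (3) was 5 with DESeq2 and 7 in a fit of the compared groups alone. Under IL-4 (7 called) that fit gave 3, and the count of unequal IFN-gamma responses (4) became 7. Blocking on the animal, which pairs the treatments, also gave 7 for the IFN-gamma difference, and the replicate block, which joins different animals across genotypes, changed no other count by over 1.5 times (3, 13 and 6 for the genotype comparisons, 6 for animal means). Without 1 library, counts ranged from 2 to 5 between genotypes untreated, 10 to 15 under IFN-gamma and 6 to 11 under IL-4. They ranged from 23 to 25 for the IFN-gamma response in WT, 21 to 25 in KO, 12 to 21 for IL-4 in WT, 12 to 19 in KO, 2 to 5 for unequal IFN-gamma responses, 0 to 0 for unequal IL-4 responses, and 6 to 11 for animal means without 1 animal. The cause of these shifts was not tested. DESeq2 gave no adjusted p for 2 tests. edgeR, DESeq2, the random effect and the fit of compared groups were not run on animal means. Depth limits the members with under 12 reads in a WT group (Stc2, Vldlr, Cth, Cbs).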
